A study of Mus musculus with 6 samples.

Results

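The genes described here encode 10 matrix proteins of cartilage that are not collagens: Acan, Hapln1, Matn1, Matn3, Matn4, Comp, Cnmd, Snorc, Ucma and Epyc. Each was matched by its symbol to 1 of the 55487 gene IDs of the RNA-Seq count table, and all 10 were among the 26596 genes tested. RNA was taken from the rib cage of mouse embryos at 16.5 days post coitum (dpc) and was sequenced in 3 control and 3 mutant embryos, 1 library each. The mutants carry the genotype Col2-cre;Foxc1-/-;Foxc2-/-, in which the floxed forkhead transcription factor genes Foxc1 and Foxc2 are deleted by a Cre recombinase under a type II collagen promoter. The controls are labeled wild type, and the study's methods describe control embryos as littermates without Col2-cre on a mixed C57B6 and Black Swiss background, from crosses that carry the floxed alleles. In hind limbs of an earlier stage, the study found Col2-cre activity in growth plate chondrocytes, the perichondrium and the primary ossification center. The rib cage RNA also holds tissues outside the range of this driver. Controls are named by their embryo numbers (E420, E434, E435) and mutants likewise (E423, E433, E440), and wherever 3 values are given for a group they follow this order. The comparison asks how loss of both factors in Col2-expressing cells bears on the mRNA of the cartilage matrix.

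Cartilage matrix is a network of thin collagen fibrils filled with aggrecan, a large proteoglycan whose chondroitin sulfate chains hold water and resist compression. Aggrecan binds hyaluronan through link protein, and adaptor proteins such as the matrilins and cartilage oligomeric matrix protein connect collagen fibrils with proteoglycans. Type II collagen, encoded by Col2a1, is the main fibril collagen of the tissue, and the transcription factor SOX9 with SOX5 and SOX6 drives many of these genes in chondrocytes.

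The libraries held 37853988 to 47794799 counts, and levels are given as CPM (counts scaled to a common library size) after TMM scaling, edgeR's correction for library composition. Foxc1 was at 23.1, 36.9 and 24.2 CPM among controls and at 3.56, 9.61 and 3.51 CPM among mutants. Foxc2 was at 1.99, 4.83 and 3.22 CPM among controls and at 0.649, 1.14 and 0.737 CPM among mutants. Both targeted genes were thus lower in every mutant than in any control, and RNA of both remained in the mutants, with log2 fold changes of -2.34 and -1.99 and adjusted p-values in edgeR of 0.235 and 0.239, so neither was called. One control, E434, and 1 mutant, E433, stood apart from the other libraries of their group in cartilage RNA. Control E434 also nearly lacked skin RNA, with 6 keratinocyte markers (Krt5, Krt14, Krt1, Krt10, Flg and Lor) summing to 11.3 CPM against 4988 and 5824 CPM in the other controls. In mutant E433 the 6 summed to 3037 CPM, against 26885 and 27021 CPM in the other mutants. The counts and fold changes of the matrix genes are therefore given also without E434 and E433, a choice made after the data were seen, and the part of tissue composition in any difference was not tested. In bulk RNA, fewer chondrocytes and less RNA per chondrocyte cannot be told apart.

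Control E434 held the most RNA of all 10 matrix genes, and mutant E433 held the second most. Summed over the 10 genes, the level was 236, 3766 and 237 CPM among controls and 85.9, 1492 and 82.9 CPM among mutants. The matrix genes took 0.364% of the counts of E434 and 0.154% of those of E433, but 0.00801% to 0.0248% in the other 4 libraries. The highest control exceeded the lowest by 6.98-fold for Matn4 up to 24.3-fold for Epyc, and the highest mutant exceeded the lowest by 10.5-fold for Comp up to 45.4-fold for Cnmd. The other pairs were close: E420 was at 0.777 to 1.12 times E435, and E423 at 0.826 to 1.30 times E440.

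**Figure D1:**
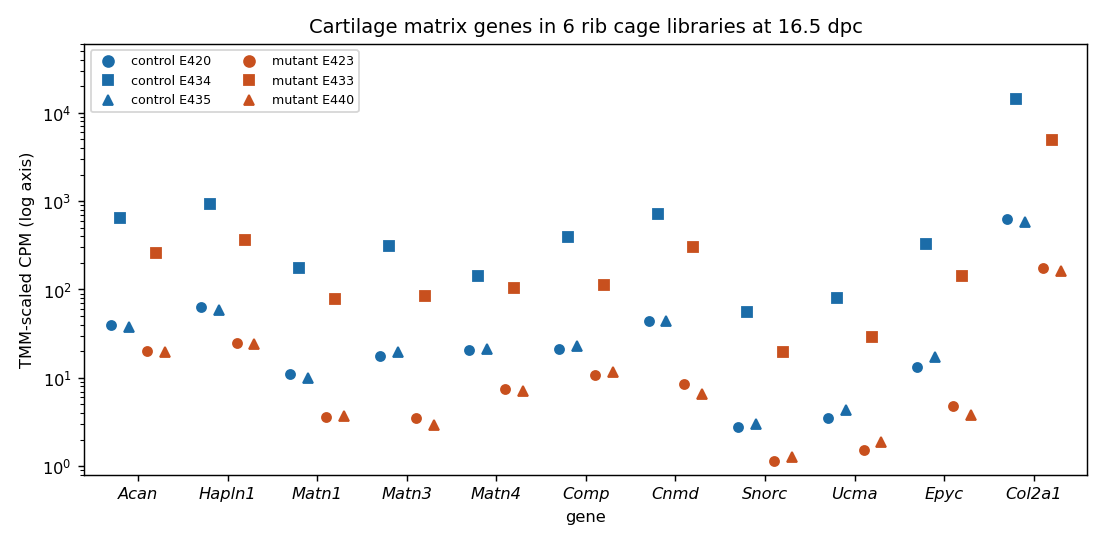
Levels of the 10 matrix genes and of Col2a1 in each library, in TMM-scaled CPM on a log axis, with blue points for the 3 controls and orange points for the 3 mutants. The square points, control E434 and mutant E433, lie above all other libraries for every gene, and mutants E423 and E440 lie below all 3 controls.

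None of the 10 genes was called between the groups with all 6 libraries, where a call needed an adjusted p below 0.1 and a change of 1 or more on the log2 scale (edgeR quasi-likelihood test, Benjamini-Hochberg over all genes). Of all genes tested, 0.0639% were called. The fitted log2 fold change of mutant over control was below 0 for all 10, from -1.95 for Matn3 to -0.66 for Matn4, against 48.8% of all genes below 0. The median over the 10 was -1.35, and that over all genes 0.01. Standard errors, derived from the edgeR test statistic, ran from 1.26 to 1.74 and exceeded the size of the change for every gene but Matn3 and Comp. The adjusted p-values in edgeR ran from 0.708 to 0.880, and 0 of the 10 had an unadjusted p below 0.05, where 10.6% of all genes did. Since mutant E433 lay above controls E420 and E435 for all 10 genes, the groups overlapped for each, while they were apart for 15% of all genes, 8.21% lower and 6.81% higher in mutants.

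Mutants E423 and E440 lay below all 3 controls for all 10 genes, as they did for 23% of all genes. With E434 and E433 left out, edgeR called 8 of the 10 lower in mutants and all 10 had groups apart. The background was 30.7% of all genes with the mutants apart and lower, and 2.59% called lower in that fit. Acan and Comp passed the adjusted p but fell short of the fold limit, and 18.3% of all genes passed the adjusted p in that direction. The log2 fold changes ran from -2.54 for Matn3 to -0.95 for Acan, with a median of -1.41. This fit compares 2 controls with 2 mutants, and its p-values measure only the spread within these close pairs. Each of the 2 libraries alone set the sign or the size: without E434 all 10 fold changes were positive, from 0.67 for Matn3 to 1.74 for Epyc on the log2 scale, and without E433 they were between -5.16 for Matn3 and -3.08 for Matn4, with adjusted p-values in edgeR of 0.133 to 0.223.

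**Figure D2:**
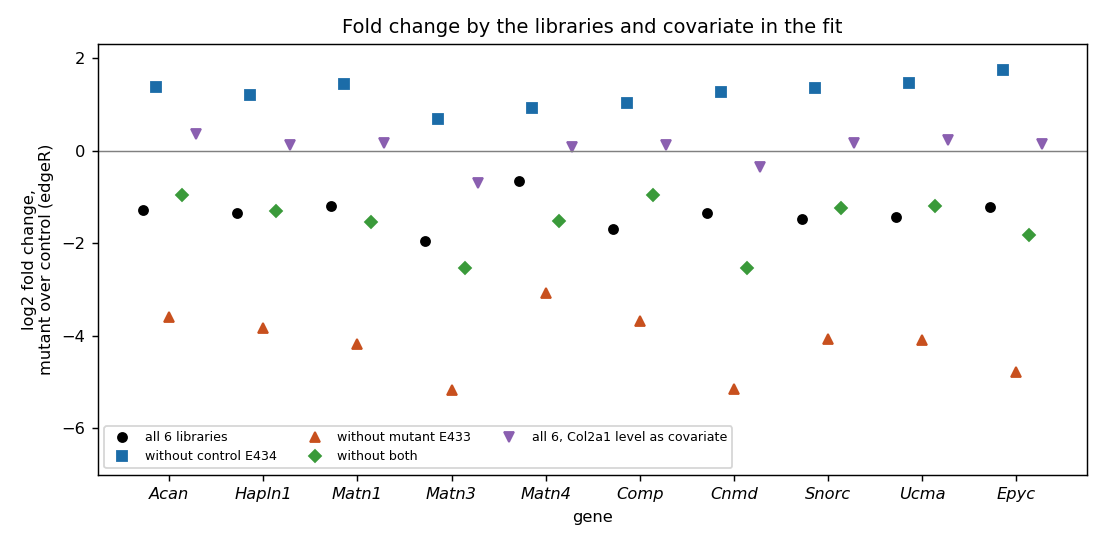
The log2 fold change of mutant over control in edgeR for each gene, with all 6 libraries, without control E434, without mutant E433, without both, and with the Col2a1 level as a covariate. Without E434 all 10 values are above 0, and without E433 all are below -3; with the covariate 8 of the 10 lie above 0 and Matn3 and Cnmd below.

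Aggrecan and link protein, which bind each other on hyaluronan, did not pass the test over all libraries and had fold changes of similar size. Acan (chromosome 7, 79053483 to 79115099, plus strand, GRCm38), the core protein of aggrecan, was at 39.5, 646 and 37.1 CPM among controls and at 19.9, 258 and 19.6 CPM among mutants. Its log2 fold change over all libraries was -1.28 ± 1.47 (SE, n = 3 per group, adjusted p = 0.787 in edgeR), and without E434 and E433 it was -0.95 ± 0.07 (n = 2 per group). Hapln1 (chromosome 13, 89539796 to 89611652, plus strand), the cartilage link protein that locks aggrecan onto hyaluronan, was at 62.6, 929 and 57.9 CPM among controls and 24.6, 365 and 24.2 CPM among mutants. The log2 fold change of Hapln1 was -1.34 ± 1.49 (SE, n = 3 per group, adjusted p = 0.779 in edgeR). For both genes the 2 high libraries set the group means, and the remaining mutants were lower than the remaining controls.

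Among the matrilins, adaptor proteins with von Willebrand factor A domains that assemble into filaments, Matn3 had the widest difference. Matn3 (chromosome 12, 8947929 to 8972028, plus strand) was at 17.7, 309 and 19.8 CPM among controls and at 3.51, 83.5 and 2.95 CPM among mutants. Its log2 fold change was -1.95 ± 1.66 (SE, n = 3 per group, adjusted p = 0.708 in edgeR). Without E434 and E433, left out after the data were seen, it was -2.54 ± 0.12 (SE, n = 2 per group, adjusted p = 3.69e-13 in edgeR). That p-value measures only the spread within the close pairs that remained, which were selected by the levels of these same genes. Matn1 (chromosome 4, 130944385 to 130955475, plus strand), the first cartilage matrilin described and a partner of Matn3 in mixed filaments, was at 11.2, 176 and 9.96 CPM among controls and 3.61, 78.1 and 3.66 CPM among mutants. Matn4 (chromosome 2, 164389393 to 164405160, minus strand), which is not restricted to cartilage, was at 20.6, 144 and 21.1 CPM among controls and 7.38, 103 and 7.17 CPM among mutants. E434 exceeded E433 by 3.70-fold for Matn3 and by 1.39-fold for Matn4, the ends of the range over the 10 genes, whose median was 2.52. The exons of Matn4 share 149 bases (2.88%) with Rbpjl on the other strand, and strand was not used in counting.

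Comp (chromosome 8, 70373558 to 70382066, plus strand), a pentameric thrombospondin that binds collagen fibrils in cartilage and tendon, was at 21.3, 390 and 22.8 CPM among controls and at 10.8, 113 and 11.8 CPM among mutants. Its log2 fold change was -1.69 ± 1.44 (SE, n = 3 per group, adjusted p = 0.710 in edgeR), next after Matn3 in size. Without E434 and E433 it was -0.97 ± 0.09 (n = 2 per group), among the smallest. Cnmd (chromosome 14, 79637690 to 79662170, minus strand), which encodes chondromodulin, an inhibitor of vessel growth in avascular cartilage, was at 43.5, 714 and 43.8 CPM among controls and at 8.56, 299 and 6.59 CPM among mutants. The order thus turned for Cnmd: -1.35 ± 1.73 over all libraries (adjusted p = 0.810 in edgeR) and -2.53 ± 0.09 without the 2 high libraries (n = 2 per group). Comp and Cnmd show how far the 2 high libraries decided the ranking of the genes by fold change.

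Of the 10 genes, Snorc and Ucma had the fewest counts in each of the 6 libraries. Snorc (chromosome 1, 87470271 to 87475482, plus strand), a small chondrocyte transmembrane proteoglycan, was at 2.75, 55.7 and 2.99 CPM among controls and at 1.15, 19.6 and 1.28 CPM among mutants, where the lowest value rested on 48 counts. Ucma (chromosome 2, 4976122 to 4985748, plus strand), a vitamin K-dependent protein rich in modified glutamate, was at 3.54, 79.95 and 4.29 CPM among controls and 1.54, 29.1 and 1.86 CPM among mutants. Epyc (chromosome 10, 97644068 to 97682454, plus strand), or epiphycan, a small leucine-rich proteoglycan of growth plate cartilage, was at 13.3, 323 and 17.1 CPM among controls and 4.81, 144 and 3.81 CPM among mutants. Their log2 fold changes over all libraries were -1.48 for Snorc, -1.43 for Ucma and -1.21 for Epyc, with adjusted p-values in edgeR of 0.764, 0.778 and 0.831. Without the 2 high libraries the values were -1.23, -1.20 and -1.83. Of the exon bases counted for Epyc, 1041 (40.65%) are shared with the opposite-strand gene Gm10754, so its counts are less certain than those of the other genes.

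Compared per kilobase of exon, Cnmd was the highest of the 10 in 5 libraries, at 387 CPM per kb in control E434 and 4.65 CPM per kb in mutant E423. In mutant E440 Hapln1 ranked first, at 4.10 CPM per kb, and Cnmd ranked at 3. Matn3 ranked at 4 or 5 among controls but at 8 in mutant E433 and at 10, the lowest, in mutants E423 and E440, at 1.17 and 0.978 CPM per kb. Matn4 ranked at 9 or 10 in every library.

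The 10 genes varied together across the libraries. Pearson's r of log2 CPM between any pair of the 10 was 0.967 to 0.9995 over 6 libraries, a description in which the gap of E434 and E433 from the other 4 carries most of the range. Each gene also followed Col2a1, which was at 631, 14427 and 582 CPM among controls and at 177, 4927 and 162 CPM among mutants. For each doubling of Col2a1, the fitted log2 level was higher by 1.02 for Cnmd, 0.99 for Epyc and 0.98 for Matn3, but by 0.80 for Acan, 0.78 for Comp and 0.70 for Matn4. The slope was 0.40 for Sox9, and 0.10 and 0.05 for Vcan and Matn2, family relatives of Acan and of the matrilins. Among 11138 genes with a mean of at least 10 CPM, the 10 outside the set whose pattern was most like the mean of the matrix genes were Col2a1, Susd5, Islr, Fkbp9, Col9a1, Col9a2, Pam, Dnm1, Ncmap and Mogs, with r of 0.997 to 0.9996 over the 6 libraries. Likeness is one of shape and not of size, since Col2a1 ranged from 162 to 14427 CPM and Mogs from 52.9 to 80.3 CPM.

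The ratio of each gene to Col2a1 within a library does not depend on scaling between libraries, and it is given as reads per kilobase of exon for every 100 of Col2a1. By this measure Matn3 alone of the 10 had groups that did not overlap. Its ratio was 8.63, 6.57 and 10.4 among controls and 6.08, 5.20 and 5.56 among mutants, or 8.55 ± 1.94 against 5.61 ± 0.44 (SD, n = 3 each). The mean log2 ratio was lower in mutants by 0.58 (value of mutant minus control -0.58), with a 2-sided exact permutation p of 0.1, the smallest that 3 against 3 libraries can give. Of all genes tested, 0.00376% had a lower and 0.707% a higher ratio in every mutant than in any control. The lower share is 1 of 26595 genes, Matn3 itself, and so is no independent background. Few genes followed Col2a1 that closely, since the ratio spanned 95.2-fold over the 6 libraries for the median gene and at most 4.43-fold for the matrix genes. Among the 28 genes whose ratio spanned no more than that, 3.57% were lower, which is Matn3 itself, and 7.14% were higher. The limit came from the matrix genes, and they were not left out of the 28, so these shares are no independent background.

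The separation of the groups for Matn3 depended on the reference. Counted against the summed Col9a1, Col9a2, Col9a3, Col11a1 and Col11a2 counts instead, Matn3 was at 1.37, 2.84 and 1.59 counts per 100 in the controls and 0.815, 1.89 and 0.695 in the mutants, and the groups overlapped through E433. With the Col2a1 level as a covariate in edgeR, the log2 fold change of Matn3 was -0.70 ± 0.12 with an adjusted p of 0.0697, past the limit on p that 1.94% of all genes passed, but short of the fold limit. Cnmd was at -0.36 ± 0.21 (adjusted p = 0.50 in edgeR), and the other 8 genes were at 0.071 to 0.35, so 0 of the 10 were called, against 0.917% of all genes.

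The other 9 ratios overlapped between the groups. Cnmd was the other gene with a lower mean ratio in mutants, at 34.6, 24.8 and 37.7 among controls and 24.2, 30.5 and 20.3 among mutants. Acan stood at 7.75, 5.54 and 7.90 in the controls and 13.9, 6.48 and 14.9 in the mutants, and Comp at 10.5, 8.43 and 12.2 in the controls and 18.9, 7.12 and 22.6 in the mutants. For Acan and Comp, mutants E423 and E440 were thus above every control and E433 was not. Hapln1 showed the same arrangement, at 15.5, 10.1 and 15.6 against 21.8, 11.6 and 23.3, and so did Matn1, Matn4, Snorc and Ucma. E434 had the lowest ratio of all libraries for 6 of the 10 genes. Epyc was the steadiest, with ratios from 7.62 to 10.6 over all 6 libraries. Without E434 and E433, 9 of the 10 ratios did not overlap between groups, Matn3 and Cnmd lower and the other 7 higher in mutants, with Epyc as the exception. Of all genes, 0.737% were lower and 92% higher by that measure, so a higher ratio was the common case and a lower one was rare. Col2a1 itself was at 631 and 582 CPM in E420 and E435 and at 177 and 162 CPM in E423 and E440. A gene with an unchanged level thus has a higher ratio in these mutants. The 7 genes with a higher ratio were lower in CPM there.

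**Figure D3:**
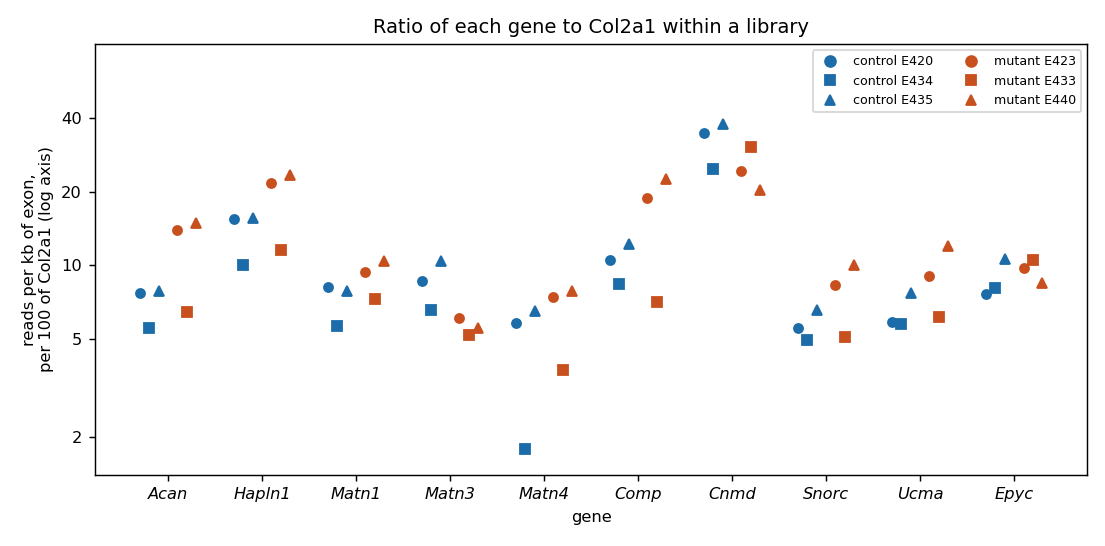
Ratio of each gene to Col2a1 within a library, as reads per kilobase of exon for every 100 of Col2a1, on a log axis, with blue points for controls and orange points for mutants. Matn3 is the one gene with all 3 mutants, at 5.20 to 6.08, below all 3 controls, at 6.57 to 10.4.

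Promoter sequences were read to see what genes that moved together hold near their starts. RefSeq promoters of build GRCm38.p6, from 250 bases before to 50 after the start, were given for 8 of the 10 genes, as 10 entries. Comp and Snorc had no entry. Those of Matn3 and Cnmd, the genes whose ratio to Col2a1 was lower on average in mutants, of Matn1, the matrilin set beside Matn3, and of Epyc, which holds the only motif matches, are shown 5′ to 3′ on the strand of the gene, in lower case with motif matches in capitals.
Matn3 (chr12:8947679-8947978, plus strand) has no match.
Matn3: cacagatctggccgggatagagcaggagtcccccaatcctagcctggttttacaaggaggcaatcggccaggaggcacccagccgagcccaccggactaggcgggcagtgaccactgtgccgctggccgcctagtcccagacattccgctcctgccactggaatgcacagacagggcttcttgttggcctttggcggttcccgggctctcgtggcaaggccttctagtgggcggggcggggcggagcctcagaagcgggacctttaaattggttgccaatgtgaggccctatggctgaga
Matn1 (chr4:130944135-130944434, plus strand) has no match.
Matn1: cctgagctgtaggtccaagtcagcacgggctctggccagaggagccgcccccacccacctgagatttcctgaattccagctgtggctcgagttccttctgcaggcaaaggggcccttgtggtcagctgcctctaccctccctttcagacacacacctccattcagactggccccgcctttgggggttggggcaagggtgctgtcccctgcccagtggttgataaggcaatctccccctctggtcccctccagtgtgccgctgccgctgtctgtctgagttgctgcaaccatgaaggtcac
Cnmd (chr14:79662134-79662433, minus strand) has no match.
Cnmd: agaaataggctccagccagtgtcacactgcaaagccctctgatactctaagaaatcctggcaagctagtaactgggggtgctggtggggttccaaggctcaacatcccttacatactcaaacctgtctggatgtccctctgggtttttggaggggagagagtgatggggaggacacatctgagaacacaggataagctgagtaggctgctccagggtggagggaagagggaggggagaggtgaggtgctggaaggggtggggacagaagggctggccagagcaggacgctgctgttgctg
Epyc has an upstream start (chr10:97643818-97644117, plus strand) and a downstream start (chr10:97646853-97647152, plus strand).
Epyc upstream start: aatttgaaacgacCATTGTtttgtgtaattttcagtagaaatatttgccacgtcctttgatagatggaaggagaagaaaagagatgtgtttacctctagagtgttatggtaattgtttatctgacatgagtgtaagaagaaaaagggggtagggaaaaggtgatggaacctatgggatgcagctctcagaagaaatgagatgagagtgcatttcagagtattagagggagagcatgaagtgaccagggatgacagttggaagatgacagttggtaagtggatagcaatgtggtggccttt
Epyc downstream start: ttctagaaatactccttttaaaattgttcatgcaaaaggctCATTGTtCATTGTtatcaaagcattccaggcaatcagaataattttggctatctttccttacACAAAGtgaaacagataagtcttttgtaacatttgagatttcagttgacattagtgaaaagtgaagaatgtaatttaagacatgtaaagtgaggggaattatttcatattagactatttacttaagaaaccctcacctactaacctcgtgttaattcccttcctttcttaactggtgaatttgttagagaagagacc
The motifs searched on both strands were ACAATG and ACAAAG, core letters of sites that SOX proteins bind, and TATAAA, and a match to 1 of the 3 cannot also be a match to another. ACAATG was in 12.6% of all 32851 promoter entries and ACAAAG in 18.7%, and either was in 28.6% of all entries and in 2 of the 10 entries of the matrix genes, both of Epyc. The upstream Epyc promoter has ACAATG on the reverse strand from 237 to 232 bases before the start. The downstream promoter has ACAATG on the reverse strand from 209 to 204 and from 202 to 197 bases before the start, and ACAAAG on the forward strand from 147 to 142. TATAAA was in none of the 10 entries and in 13.6% of all, and the median GC content was 56% against 52.7% over all promoters.

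Close family relatives of the 10 genes that are used outside cartilage were also measured. None of 14 family relatives was called, and their median log2 fold change was -0.49. Without E434 and E433, 1 of the 13 then tested was called lower, against 2.59% of all genes. The groups were apart and lower in mutants for 3 (Bcan, Hapln4 and Tnmd), against 8.21% of all genes. The largest values, none past the test, were in Bcan, a brain lectican, at -1.35 and Tnmd at -1.01, and at 0.63 in Ncan, which was at 0.510 CPM or less in every library. Vcan, the lectican versican of loose mesenchyme, was at 195, 273 and 181 CPM among controls and 187, 266 and 180 CPM among mutants. Matn2, the matrilin of many soft tissues, was at 164, 216 and 162 CPM among controls and 159, 166 and 170 CPM among mutants. E434 therefore exceeded the lowest control by 1.51-fold for Vcan and 1.34-fold for Matn2, where it exceeded it by 6.98-fold or more for the 10 matrix genes. Among the 4 other thrombospondins measured, Thbs1 had the largest excess in E434, at 3.02 times the mean of the other controls against 17.7 times for Comp. Thbs1 was at 102, 298 and 95.3 CPM among controls and 78.2, 163 and 78.1 CPM among mutants. Tnmd, or tenomodulin, the tendon relative of Cnmd, was at 90.1, 148 and 92.2 CPM among controls and 48.6, 67.2 and 48.3 CPM among mutants, with every mutant below every control, a log2 fold change of -1.01 and an adjusted p of 0.325 in edgeR.

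**Figure D4:**
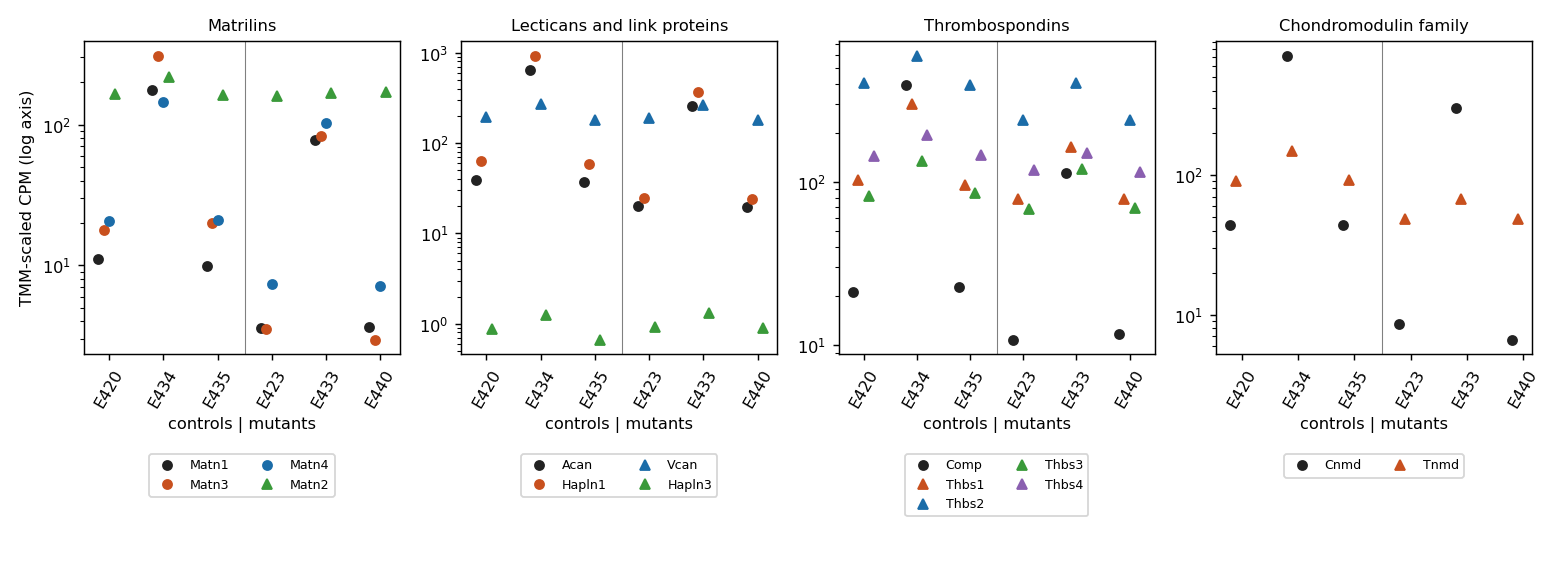
Levels in each library, in TMM-scaled CPM on a log axis, of members of the matrix set (circles) and their family relatives (triangles), with controls left and mutants right of the gray line. The circles are raised in E434 and E433, while Matn2 and Vcan stay between 159 and 273 CPM in all 6 libraries.

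Other lists of cartilage genes were read from the same edgeR fit, and none held a called gene with all 6 libraries. The 6 cartilage collagens had a median log2 fold change of -1.34, close to the -1.35 of the matrix genes, with overlapping groups for all 6. Col11a2 at -1.60 and Col2a1 at -1.57 had the largest values without passing the test. All 6 were called lower without E434 and E433, against 2.59% of all genes. Of 16 other cartilage matrix and secreted genes, 3 were lower with groups apart (Cilp, Cilp2 and Vit) and 2 higher (Clec3b and Crtac1). Over all genes these shares were 8.21% and 6.81%. The median of the 16 was -1.08, and 6 were called lower without the 2 libraries, against 2.59% of all genes. Without passing the test, the largest values were in Clec3a at -1.82 and Vit at -1.75, and at 0.72 in Crtac1 and 0.60 in Clec3b.

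The transcription factors of the lineage had a median change nearer 0 than the matrix genes. Sox9, the factor that specifies chondrocytes, was at 20.997, 105 and 19.2 CPM among controls and 19.7, 70.3 and 19.4 CPM among mutants, so outside E434 and E433 its levels lay within 19.2 to 20.997 CPM in both groups. The 8 chondrogenic transcription factors had a median of -0.37, overlapping groups for all 8 and 0 called without the 2 libraries. The largest values were in Foxa3 at -1.25 and Foxa2 at -1.05, each at or below 0.515 CPM in the 4 lower libraries, and at 0.85 in Barx2. Unlike the matrix genes, Barx2 was lowest in E434 and E433, at 26.6, 3.93 and 30.4 CPM among controls and 47.0, 16.1 and 46.9 CPM among mutants.

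Enzymes that cut the matrix or build its sugar chains had no called gene either. The 9 proteases of aggrecan and COMP had a median log2 fold change of -0.21. Against 8.21% of all genes, 2 of the 9 had groups apart and lower. These were Adamts4, an aggrecanase, at -0.22, and Mmp13, the collagenase of hypertrophic cartilage and bone, which was at 200.2, 207 and 209 CPM among controls and 35.1, 4.29 and 37.8 CPM among mutants. The log2 fold change of Mmp13 was -3.00 with an adjusted p of 0.346 in edgeR. Without E434 and E433 it alone of the 9 was called, lower in mutants, against 2.59% of all genes. The 15 genes of chondroitin sulfate chain synthesis had a median of -0.35 and 0 called without the 2 libraries. Of the 15, 3 had groups apart and lower (B3galt6, B3gat3 and Csgalnact2), against 8.21% of all genes. The largest values were in Chst11, a chondroitin sulfotransferase, at -0.94 and Chsy3 at -0.75.

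Markers of other cell types were read in the same way, and 0 of those listed here were called with all 6 libraries. Over all genes, 8.21% had groups apart and lower in mutants and 6.81% apart and higher. Of 6 hypertrophic chondrocyte markers 4 had groups apart and lower in mutants (Pth1r, Mmp13, Panx3 and Alpl), with sums of 552 to 1108 CPM in controls and 256 to 267 CPM in mutants. All 6 osteoblast markers were lower in every mutant than in any control, with sums of 11348 to 16431 CPM in controls and 7923 to 8313 CPM in mutants. Col1a1, at 7152 to 14932 CPM, made most of each of these sums. Of 6 tendon markers 4 had groups apart and lower, with sums of 462 to 1089 CPM in controls and 244 to 540 CPM in mutants. Fmod, also on the list of other cartilage matrix genes and with overlapping groups, made 679 CPM of the tendon sum in E434 and 288 CPM in E433. All 6 adipocyte markers were higher in every mutant, with sums of 248 to 308 CPM in controls and 369 to 844 CPM in mutants, and Adipoq was at 0.0882 to 0.458 CPM in controls. Skeletal muscle markers summed to 10370 to 18101 CPM in controls and 13840 to 25236 CPM in mutants, and the groups overlapped for all 6. Of 6 erythroid markers 4 were lower in every mutant than in any control, with sums of 18041 to 22497 CPM in controls and 7519 to 14460 CPM in mutants. The groups overlapped for all 6 hepatocyte markers, whose sums were 29.5 to 45.8 CPM in 5 libraries and 587 CPM in E433. Keratinocyte markers, at 11.3 to 5824 CPM in controls and 3037 to 27021 CPM in mutants, were highest in the 2 mutants with the least matrix RNA and lowest in the control with the most. Of the keratinocyte markers Flg was at 0 counts in E434 and at 0.0206 to 0.116 CPM in E420, E435 and E433. Without E434 and E433, the markers called lower in mutants were 6 of 6 erythroid, 4 of 6 osteoblast, 2 of 6 tendon and 2 of 6 hypertrophic chondrocyte genes, against 2.59% of all genes. Those called higher were 6 of 6 keratinocyte, 6 of 6 adipocyte, 4 of 6 skeletal muscle and 2 of 6 hepatocyte genes, against 5.66% of all genes. The part of these tissues in the levels of the matrix genes was not tested.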

How the data were processed

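RNA was extracted from the rib cages of 3 control and 3 mutant mouse embryos, and paired-end poly(A) libraries were sequenced. The deposited gene counts were made by the authors with HISAT2 2.1.0 and featureCounts 1.6.0 on GENCODE exons, GRCm38; per the file headers each read end was counted and strand was not used. The authors also deposited RSEM 1.2.31 expected counts, rounded here to whole numbers, and TPM from STAR 2.7.6 alignments. Tables of the authors' own fold changes and p-values, with 12 per-sample columns, were not used.

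Symbols were matched for 55141 of 55487 gene IDs from an annotation table of the same build. Library totals were 37853988 to 47794799 counts. Genes with at least 10 counts over the 6 libraries were tested with edgeR 4.0.16 (TMM, quasi-likelihood test, R 4.3.3), and called at an adjusted p below 0.1 and a log2 fold change of 1. DESeq2 1.42.0 was an alternative, as were other filters, scalings, inputs, a Col2a1 covariate and leaving out libraries. Standard errors of edgeR fold changes were back-calculated as the size of the change over the square root of the F statistic of its test. Ratios to Col2a1 were compared by 2-sided exact permutation tests. Counts of 1 group were compared in pairs over genes with a mean of at least 50 counts: the chi-square per degree of freedom was 10.1 for E420 and E435 and 3.50 for E423 and E440, and 179 to 256 for pairs with E434 or E433. This check covers counting error only, and counted read ends are not independent molecules. Each library was treated as 1 sample, as labeled. P-values measure only the spread between these samples. Scripts were tested on simulated data. The lowest level of the 10 genes rested on 48 counts. For ratios over all genes 0.5 was added to each count. The text names the 10 genes, Col2a1, the targeted genes, family relatives, the 10 genes of most similar pattern, and of each list the genes with the largest changes or groups apart. The members and lists were chosen with earlier results of these data known.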

Additional observations from a re-analysis of the deposited data

How the results depend on the processing

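No paired analysis was possible because the labels name the embryos without replicate numbers, the numbers used here follow only the order of deposit, and neither labels nor methods say which control and mutant shared a litter. The count of 0 matrix genes called was unchanged under DESeq2 size factors, the DESeq2 Wald test, other filters, RSEM counts and other limits. It was also unchanged with the close libraries summed and on leaving out any single library. Of all genes, 0 were called with the close libraries summed or without E420, E435, E423 or E440. Those settings therefore could not tell the matrix genes from other genes. Without E434, 17 of all genes were called, and without E433, 1087. The DESeq2 Wald test gave no p for any of the 10, and without its outlier filter, an alternative added after seeing the data, adjusted p-values ran from 0.758 to 0.929. DESeq2 called 477 of all genes and edgeR 17. Leaving out both E434 and E433 was also added after seeing the data. It gave 8 matrix genes called, 10 with groups apart and 9 ratios to Col2a1 that did not overlap. The ratio of Cnmd was then -0.70 on the log2 scale, and 14 genes of the other lists were called against 0. Of all genes, 2.59% were then called lower and 5.66% higher, and 30.7% had groups apart and lower. The ratio was lower for 0.737% of all genes and higher for 92%, so ratios apart were the common case. The count of ratios that did not overlap was 1 to 9 on leaving out single libraries (2 without E434, 3 without E435, 9 without E433). The share over all genes was not counted for single libraries left out, so these counts have no background. Without E433, Col2a1 itself was at 582 to 14427 CPM in controls and at 162 and 177 CPM in the remaining mutants. With the other cartilage collagens as reference the count was 0, and the log2 ratio of Matn3 was -0.84 and that of Epyc -0.12. With the Col2a1 covariate the log2 fold change turned positive for Acan at 0.35, Hapln1 at 0.13, Matn1 at 0.16, Matn4 at 0.071, Comp at 0.12, Snorc at 0.15, Ucma at 0.23 and Epyc at 0.15. On leaving out single libraries the log2 fold change ran from -3.60 to 1.37 for Acan, -3.84 to 1.196 for Hapln1, -4.17 to 1.43 for Matn1, -5.16 to 0.67 for Matn3, -3.08 to 0.91 for Matn4, -3.68 to 1.03 for Comp, -5.14 to 1.26 for Cnmd, -4.07 to 1.35 for Snorc, -4.10 to 1.47 for Ucma and -4.77 to 1.74 for Epyc, positive in each case without E434. The cause was not tested. Of 150 alternative fold changes, 18 turned sign, and of 100 alternative ratios, 3 moved by more than the spread between replicates.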
